A study of Drosophila melanogaster with 4 samples.

Results

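The 10 genes hid, rpr, grim, skl, Diap1, Diap2, Dronc, Dark, Drice and Dcp-1 form the core apoptosis machinery that carries out the death of larval tissues in Drosophila melanogaster. They were taken by name from the Ensembl annotation of dm6 and are 10 of the 13968 protein-coding genes on the chromosome arms. The binding data come from mixed-sex animals at the white prepupa stage, processed whole, in which a stable transgenic Eip78C carries green fluorescent protein at its C-terminus. Chromatin was recovered with an antibody against that tag and sequenced (ChIP-seq) in 4 biological replicates, which form a single group of 1 genotype and 1 stage, with no treatment named. The labels name an insertion targeting Eip78C and do not say where the tagged copy sits or whether untagged Eip78C remained. No untagged or input sample is among those analysed here, so no gene has a background value measured in the same way. The animals were not dissected, so larval tissues that are lost during metamorphosis, such as the salivary gland and midgut, cannot be told apart from tissues that survive. The deposited lists hold peaks and no reads, so the depth behind them is unknown, and they hold no expression or cell death measurement.

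A summit is the highest position of a peak, and the authors' signal score orders the peaks of 1 list from rank 1, the strongest. The authors' thresholded set, called optimal here, held 8164 different intervals, and it equalled the highest-scoring peaks of the list called on the pooled replicates. Each replicate list and the pooled list held 30000 peaks that include background, so where replicates are counted, a replicate's strongest peaks are used, as many as the optimal set holds. For each gene, summits were taken inside it and up to 5 kb to either side, and also in the stretches between hid, grim, rpr and skl. Of the 10 genes, 6 lie on arm 3L, 3 on 2R and 1 on 3R. The genes hid, grim, rpr and skl follow each other on 3L in that order, all on the minus strand, from 18167745 to 18439942.

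Eip78C belongs to the nuclear receptors and resembles vertebrate Rev-erb, and its gene is switched on by the steroid hormone ecdysone. Around pupariation, pulses of ecdysone start the destruction of larval tissues by apoptosis. The proteins hid, rpr, grim and skl are the antagonists in this pathway: they bind inhibitor of apoptosis proteins (IAPs) and lift their hold on caspases, the proteases that dismantle the cell. Diap1 is the main IAP and blocks both initiator and effector caspases. Dronc is the initiator caspase, Dark is the adaptor on which it is activated, and Drice and Dcp-1 are effector caspases that Dronc cleaves.

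The sequences under the strongest summits of hid, of the intergenic DNA next to it and of Diap1 are given first, because the ranks that follow turn on these places. Each is the plus strand of the dm6 reference from RefSeq, written 5′ to 3′, with 100 bp to either side of the summit, and all lie on arm 3L outside exons. Capitals mark GAGAG, a motif of GAGA factor, on either strand (CTCTC on the minus strand), and, in the last sequence, TGACCT, which is the nuclear receptor motif AGGTCA read on the minus strand. The last sequence is shown because it is the only window of the 17 summits at the listed genes with that motif.
intergenic summit of rank 110, chr3L:18235930-18236130: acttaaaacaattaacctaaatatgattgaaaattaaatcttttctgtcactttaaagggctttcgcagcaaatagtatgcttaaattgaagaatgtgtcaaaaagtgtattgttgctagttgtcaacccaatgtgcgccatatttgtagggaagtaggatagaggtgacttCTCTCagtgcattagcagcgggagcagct
intergenic summit of rank 153, chr3L:18195107-18195307: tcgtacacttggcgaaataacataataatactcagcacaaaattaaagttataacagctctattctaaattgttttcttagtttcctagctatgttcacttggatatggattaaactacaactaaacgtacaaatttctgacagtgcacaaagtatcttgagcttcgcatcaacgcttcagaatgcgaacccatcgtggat
hid start site summit of rank 183, chr3L:18185830-18186030: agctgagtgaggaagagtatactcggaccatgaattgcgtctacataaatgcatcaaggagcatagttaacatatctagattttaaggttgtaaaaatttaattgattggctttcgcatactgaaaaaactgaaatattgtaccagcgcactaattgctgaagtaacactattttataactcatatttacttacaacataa
intergenic summit upstream of hid of rank 199, chr3L:18190592-18190792: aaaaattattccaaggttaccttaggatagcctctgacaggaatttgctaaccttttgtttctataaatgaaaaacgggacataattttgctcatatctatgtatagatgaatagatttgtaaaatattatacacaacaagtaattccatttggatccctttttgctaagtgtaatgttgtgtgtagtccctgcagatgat
Diap1 intron summit of rank 385, chr3L:16046084-16046284: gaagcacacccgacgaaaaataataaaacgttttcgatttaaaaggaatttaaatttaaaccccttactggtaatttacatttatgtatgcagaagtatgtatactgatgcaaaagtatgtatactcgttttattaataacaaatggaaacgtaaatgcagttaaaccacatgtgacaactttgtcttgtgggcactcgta
Diap1 intron summit of rank 3726, chr3L:16045408-16045608: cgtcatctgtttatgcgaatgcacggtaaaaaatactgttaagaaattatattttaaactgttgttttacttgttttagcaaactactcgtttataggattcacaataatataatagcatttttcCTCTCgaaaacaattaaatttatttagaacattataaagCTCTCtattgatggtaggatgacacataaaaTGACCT

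Of the 5 strongest of these windows, 1 held any of the 6 motifs searched on both strands, and that was the GAGAG match in the window of rank 110. The motif AGGTCA stood in 1 of the 17 windows at the listed genes (5.88%), in 0 of the 26 windows between hid and grim, and in 4.06% of all optimal windows of the same 201 bp. Its longer form ANTAGGTCA, which contains AGGTCA, stood in 0 of the 17, 0 of the 26 and 0.314% of all. GAGAG stood in 4 of the 17 (23.5%), 7 of the 26 (26.9%) and 23.0% of all. TATCGATA, the DNA replication-related element, stood in 1 of the 17 (5.88%), at the summit 3095 bp upstream of Dcp-1, in 0 of the 26 and in 1.49% of all. TGANTCA, the AP-1 motif, stood in 1 of the 17 (5.88%), at Diap1, in 0 of the 26 and in 5.16% of all. CACGTG, an E-box, stood in 0 of the 17, 0 of the 26 and 1.68% of all. Median GC content was 34.3% over the 17 windows, 32.8% over the 26 and 34.3% over all optimal windows. GAGAG thus lay near its share of all windows, while the other motifs rest on 1 window or none in each set. Absence of a motif says only that its letters are not within 100 bp of the summit.

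Most of the 10 genes had a summit somewhere near them, and fewer had one at a start site. An optimal summit lay inside the gene or within 5 kb at 8 of the 10 genes, beside 49.2% of all protein-coding genes. The exceptions were the antagonists grim and skl. In the full pooled list the count was also 8 of the 10, beside 66.9% of all genes. Each full replicate list gave 8 of the 10 as well, beside 75.3% to 80.1% of all genes. The margin over all genes within 5 kb thus shrank or vanished in the fuller lists. An optimal summit lay within 1 kb of a transcription start site (TSS) at 4 of the 10, hid, Diap1, Drice and Dcp-1, beside 22.0% of all genes. An optimal summit lay inside the gene at 2 of the 10, Diap1 and Dcp-1, beside 14.9% of all genes. In the replicates' own strongest peaks, 7, 6, 8 and 7 genes had a summit within 5 kb in replicates 1 to 4, a mean of 7.00 ± 0.816 (SD, n = 4), beside a mean of 53.3% of all genes. Within 1 kb of a TSS the counts were 5, 2, 3 and 4, a mean of 3.50 ± 1.29 (SD, n = 4), beside a mean of 24.4%. The count at start sites thus had the larger SD, though both rest on small whole numbers. Replicate 2 was lowest in both counts. It was also lowest over all genes, at 21.1% within 1 kb of a TSS and 49.5% within 5 kb. Of the 4 genes with an optimal summit at a start, hid and Diap1 had one that every replicate met with a peak among its strongest. With 10 genes chosen by name and 1 group of animals, neither count was tested against the background.

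**Figure D1:**
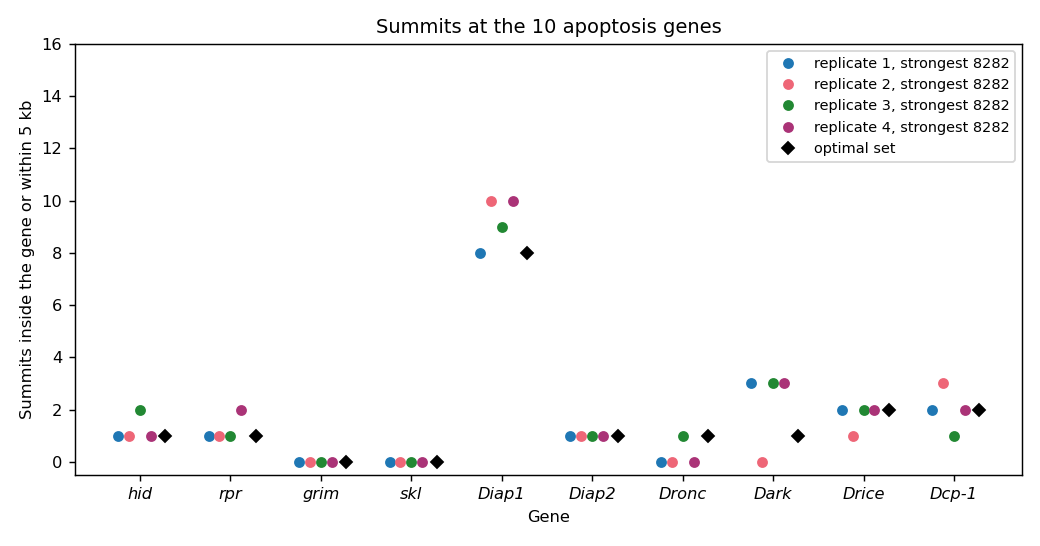
Number of summits inside each gene or within 5 kb of it (y axis) for the 10 genes (x axis), with 1 point per replicate for its strongest peaks and a diamond for the optimal set. Diap1 has 8 to 10 summits in every list, grim and skl have 0, and Dark has 3 in 3 replicates and 0 in replicate 2.

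The windows of the 10 genes held 17 optimal summits in all, of which 8 belonged to Diap1. Of the 17, 8 lay in introns, 7 between genes, 1 in a coding exon and 1 in a 5′ UTR. Their median rank was 3768, beside 4142 for all optimal peaks. All 4 replicates met 11 of the 17 with a peak among their strongest, and 15 with a peak anywhere in their lists. The optimal set was itself drawn from lists of these replicates, so such matches are partly built in. The share over all optimal peaks is not given here. The nearest coding TSS was the gene's own for 9 of the 17, which belonged to hid, rpr, Diap1 and Drice. The other 8 lay nearest to the start of a different gene. A summit within 5 kb of Diap2, Dronc, Dark or Dcp-1 was therefore in each case closer to a neighbour. Shares over all optimal summits are not given for these positions, so the counts only describe the 17.

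**Figure D2:**
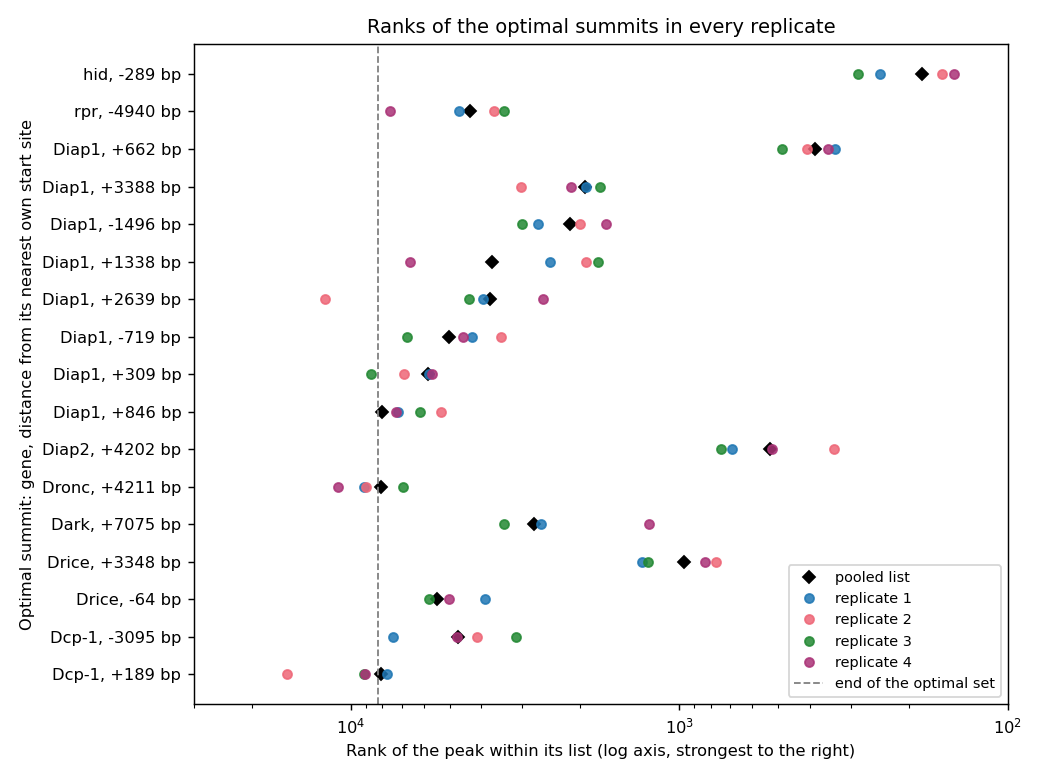
Rank of the peak at each of the 17 optimal summits (x axis, log scale, strongest to the right) in the pooled list (diamonds) and in each replicate (points). Rows name the gene and the signed distance in bp from its nearest own start site (positive in the direction of transcription), a replicate without an overlapping peak has no point, and the dashed line is the last rank of the optimal set. The points of the hid summit lie between 146 and 286 and those of the strongest Diap1 summit between 335 and 487, while weaker summits spread on both sides of the line.

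Among the antagonist genes, hid (FBgn0003997, chr3L:18167745-18185641) had a strong peak at its start. Its summit at 18185930, 289 bp upstream of the single annotated TSS and between genes, had score 1157 and rank 183. Its ranks were 244, 159, 286 and 146 in replicates 1 to 4, so every replicate placed it high in its list. The 17897 bp of the gene itself held no optimal summit. The full replicate lists placed 14, 8, 12 and 8 summits inside hid, none of them among a replicate's strongest. Replicate 3 had a further peak among its strongest, 3267 bp upstream of the start at rank 5418.

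The antagonist rpr (FBgn0011706, chr3L:18397535-18398435) had a weaker and more distant peak. Its summit at 18403375, 4940 bp upstream of the TSS, had score 186 and rank 4322. The replicates placed it at ranks 4671, 3664, 3403 and 7586, a mean of 4831 ± 1916 (SD, n = 4), with replicate 4 the lowest. At the start itself, 20 bp inside rpr, the pooled list held a peak of rank 11496, which is outside the optimal set. That peak was met at ranks 16116, 8490 and 7317 in replicates 1, 2 and 4 and was not met in replicate 3, so only replicate 4 had it among its strongest.

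The antagonists grim (FBgn0015946, chr3L:18302719-18304417) and skl (FBgn0036786, chr3L:18438561-18439942) had no optimal summit inside them or within 5 kb. No list, the full pooled and replicate lists included, placed a summit within 5 kb of grim. For skl, the only such summit in any list was that of replicate 2 at 18434512, at rank 24447 of 30000. Between neighbouring optimal summits, 67.5 kb without a summit spanned grim and 198 kb spanned the start of skl, beside a median spacing of 4.41 kb. These were the 347th and 37th widest of 8253 such gaps on the large arms. A gap picked because it covers a given place is wider on average than the median gap, so these comparisons overstate its rarity. The optimal gaps at the starts of Diap1 (78.4 kb), Dronc (73.4 kb) and Dark (106 kb) were also wider than that at grim. Those at hid, rpr, Diap2, Drice and Dcp-1 were narrower. In the pooled list of 30000 peaks the gaps were still 31.1 kb at grim and 35.8 kb at skl, beside a median of 1.30 kb.

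The intergenic DNA between hid and grim carried most of the summits of the block. From 5 kb beyond hid to 5 kb beyond skl, 282 kb held 30 optimal summits, 106 per Mb, beside 66.3 per Mb on arm 3L and 60.2 per Mb over all arms. Of these, 26 lay in the 117 kb between hid and grim (222 per Mb), 1 in the 93.1 kb between grim and rpr (10.7 per Mb) and 3 in the 40.1 kb between rpr and skl (74.8 per Mb). The hid to grim counts were 26, 23, 26 and 21 in replicates 1 to 4, a mean of 24.0 ± 2.45 (SD, n = 4). The grim to rpr counts were 1, 0, 1 and 0, and the rpr to skl counts 3, 5, 2 and 2. In the strongest peaks of every replicate the hid to grim stretch was thus the densest of the 3 and the grim to rpr stretch the sparsest. In the full replicate lists the grim to rpr counts were 7, 24, 6 and 13. It stayed the sparsest of the 3 there, but in replicate 2 it held 258 per Mb, beside 245 per Mb on arm 3L.

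**Figure D3:**
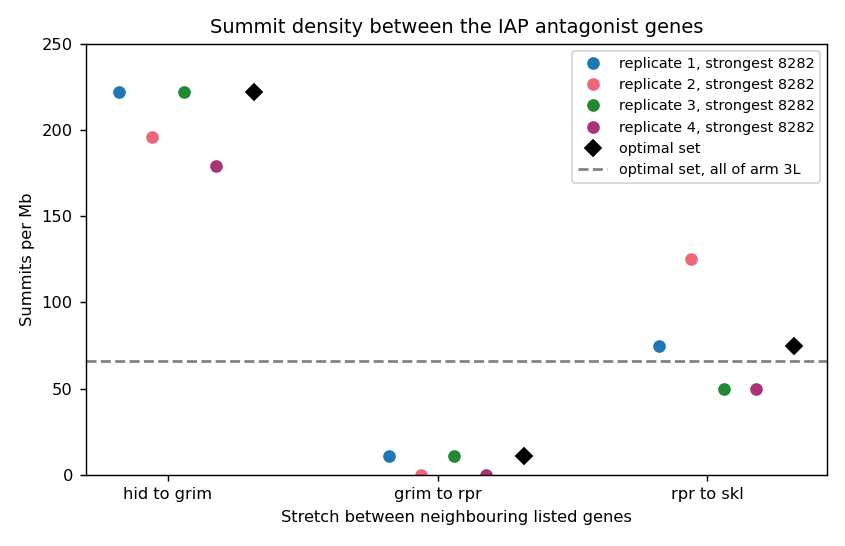
Summits per Mb (y axis) in the 3 stretches between neighbouring antagonist genes (x axis), with 1 point per replicate for its strongest peaks, a diamond for the optimal set and a dashed line at the density of optimal summits on arm 3L. The hid to grim points lie between 179 and 222 per Mb, and the grim to rpr points at 0 or 10.7 per Mb.

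The large arms were laid out end to end in 1130 windows of the length of the hid to grim stretch. These windows held a median of 6.00 optimal summits and at most 49, and 14 of them (1.24%) held 26 or more. Windows with 1 summit or none, as between grim and rpr, made up 252 of the 1130 (22.3%). The grim to rpr stretch is shorter than such a window. The hid to grim stretch held 4 peaks of rank 200 or better, and 2 windows held as many, while 965 held none. The windows cover this stretch too, and 1 of those 2 windows held the same 4 peaks. The windows are thus not a background free of the stretch. The rank limit of 200 was set with these ranks known.

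All 26 summits between hid and grim were intergenic, and 2 of them lay within 1 kb of the TSS of any annotated gene, coding or not. These 2 were the hid start site summit and the summit at 18195207, which stood 965 bp from the start of lncRNA:CR45234. The 4 coding genes in the stretch, CG7320, CheA75a, CG5103 and CG13700, had no optimal summit within 1 kb of a TSS. Shares of all optimal summits between genes or near a TSS are not given here. The counts of 26 and 2 are therefore not read as particular to this stretch. Of the 26, 7 ranked 1000 or better, 17 were in the stronger 50% of the optimal set, and the median rank was 2643. All replicates met 19 of the 26 with a peak among their strongest and 25 with any peak, again without the share over all optimal peaks beside them. Some optimal intervals overlap and share replicate peaks, as at 18232411 and 18232624, and merging overlapping intervals left 24 regions.

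The strongest peak of the stretch, with summit at 18236030, lay 50389 bp from the hid TSS towards grim and had score 1423 and rank 110. Its replicate ranks were 232, 67, 93 and 112, a mean of 126 ± 73.0 (SD, n = 4). The summit at 18195207, 9566 bp from the hid TSS, had score 1256 and rank 153, with replicate ranks 189, 162, 152 and 107 and a mean of 152 ± 34.1 (SD, n = 4). The summit at 18190692, 5051 bp upstream of hid, had score 1110 and rank 199, with replicate ranks 365, 262, 154 and 167 and a mean of 237 ± 98.0 (SD, n = 4). The replicate ranks of these 3 summits overlapped each other and those of the hid start site summit (rank 183). Within every replicate, the summit of rank 110 stood above those of ranks 183 and 199, and that of rank 153 above that of rank 199. The other pairs changed order between replicates. The pooled ranks come from the same replicates, and no order among the 4 was tested. The next 3 were the summits at 18232411 (rank 663, mean 717 ± 305 over 4 replicates), 18194518 (rank 742, mean 790 ± 275) and 18215864 (rank 894, mean 1012 ± 301). The last optimal summit before grim was at 18281377, with rank 3033.

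**Figure D4:**
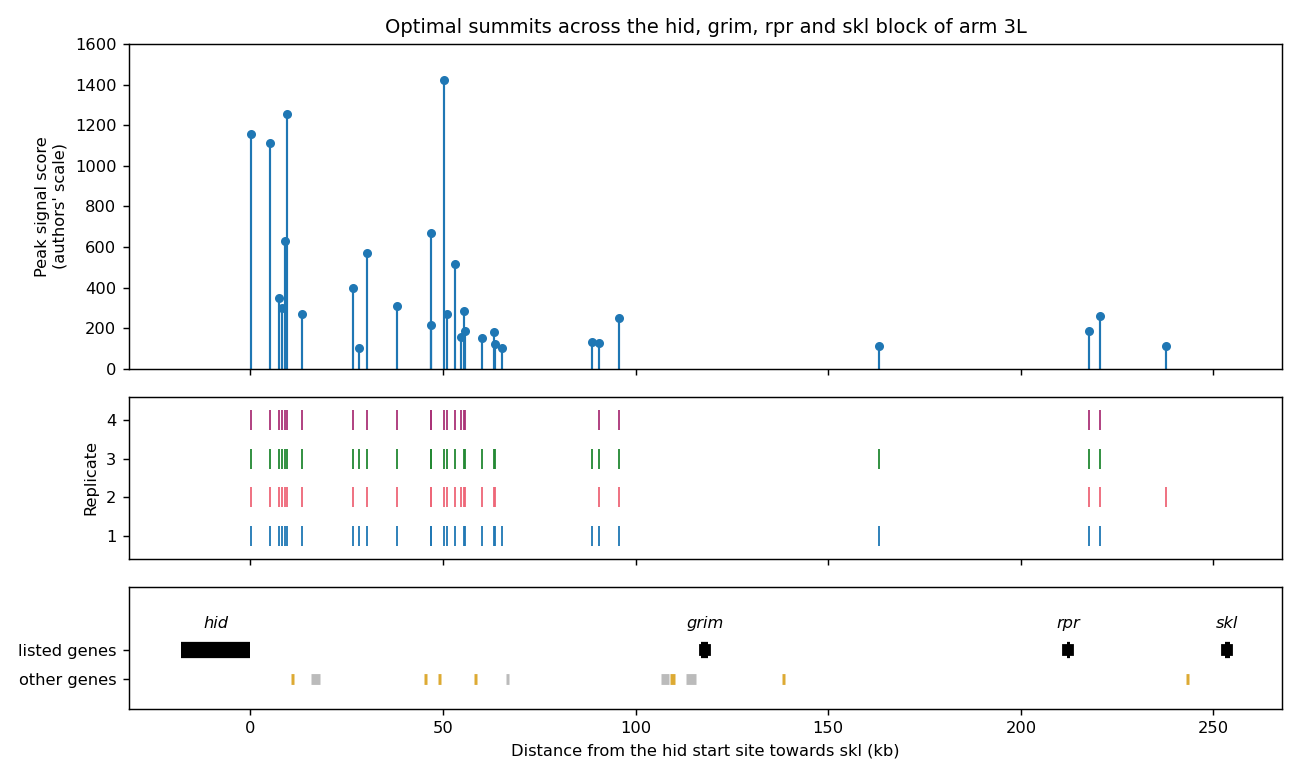
Scores of the 30 optimal summits (top, y axis in the authors' units), the optimal summits met by each replicate's strongest peaks (middle, 1 tick per summit) and the genes (bottom, black for listed, grey for other coding and gold for lncRNA genes) against the distance from the hid start site in kb, positive towards skl. Tall summits stand at the hid start, in the 10 kb upstream of it and near 50 kb, and a single low summit of score 112 lies between grim and rpr.

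The single summit between grim and rpr, at 18348834, had score 112 and rank 7376. Replicates 1, 3 and 4 met it at ranks 7423, 6032 and 8421, and replicate 2 did not meet it. Between rpr and skl, the summits beside the one 4940 bp upstream of rpr were at 18406125, with rank 2867 and replicate ranks averaging 3379 ± 1140 (SD, n = 4), and at 18423195, with rank 7386 and a mean of 8352 ± 2335 (SD, n = 4).

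Of the IAP genes, Diap1 (FBgn0260635, chr3L:16038410-16051034) had several optimal summits in it and beside it. Its 12625 bp and the 5 kb on either side held 8 optimal summits, 6 inside the gene and all 6 in introns. Of all protein-coding genes, 214 (1.53%) had as many summits, and 1.63% were as dense, at 0.354 summits per kb of window. The median gene had 0, and the median of the 10 listed genes was 1.00. The replicates' strongest peaks numbered 8, 10, 9 and 10 in the window. Diap1 has 5 annotated start sites, and 4 of them had an optimal summit within 1 kb.

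The strongest Diap1 summit, at 16046184, lay in an intron 662 bp downstream of an internal start site and had score 859 and rank 385. Its replicate ranks were 335, 409, 487 and 353, a mean of 396 ± 68.4 (SD, n = 4). The other intron summits were weaker. The summit at 16048342 had rank 2147 and replicate ranks averaging 2342 ± 615 (SD, n = 4). The summit at 16045508, which carries AGGTCA 95 bp from its centre, had rank 3726 and replicate ranks 2475, 1921, 1762 and 6588, so replicate 4 stood apart. Those at 16043289, 16050362 and 16041724 had ranks 5006, 5795 and 8021 and mean replicate ranks of 4764 ± 1392, 6750 ± 1390 and 6491 ± 937 (SD, n = 4). Beyond the 3′ end of Diap1, the summit at 16037147 lay in a coding exon of the neighbour CG5895, with rank 1933 and replicate ranks averaging 2210 ± 574 (SD, n = 4). The summit at 16037896 lay between the genes, with rank 3768 and replicate ranks 3967, 11964, 4368 and 2605, so replicate 2 did not have it among its strongest. Upstream of the outermost start, the next optimal summit was 78.4 kb from the last one in the gene. The strongest peaks of the replicates differed there, with gaps of 63.3, 2.08, 57.4 and 1.98 kb in replicates 1 to 4. Replicates 2 and 4 each had a peak upstream of that start, 1365 bp away at rank 6483 and 1374 bp away at rank 6100. Both of these peaks lay inside the neighbour Mbs, nearer to its start than to that of Diap1.

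**Figure D5:**
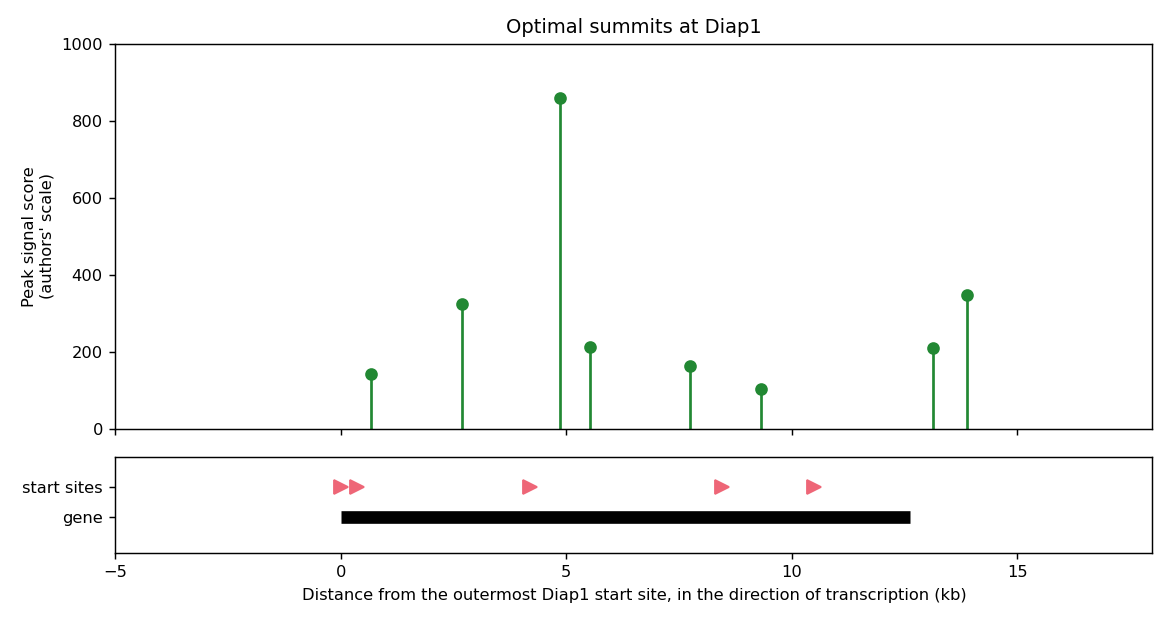
Scores of the 8 optimal summits at Diap1 (y axis, the authors' units) against the distance in kb from its outermost start site in the direction of transcription, above the annotated start sites (triangles) and the gene (bar). The summit of score 859 stands next to the internal start site near 4 kb, and no optimal summit lies upstream of the gene in the 5 kb shown.

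The hid and Diap1 peaks were compared within each replicate, since antagonist and target are ranked in the same list. The rank of the strongest Diap1 peak divided by that of the hid peak gave log2 ratios of 0.46, 1.36, 0.77 and 1.27, a mean of 0.97 ± 0.43 (SD, n = 4). The hid peak ranked higher in 4 of 4 replicates. Both peaks were picked by their rank in the list called on these same replicates pooled, where hid already stood higher. The order in the replicates is therefore no independent support for it. The exact two-sided sign-flip permutation test gave p = 0.125, the smallest that 4 pairs allow, so the design cannot pass 0.05. Across replicates the 2 sets of ranks did not overlap, with 146 to 286 for hid and 335 to 487 for Diap1.

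Diap2 (FBgn0015247, chr2R:15932170-15934825) is a second IAP, known chiefly for its part in innate immune signalling. No summit of the optimal set lay inside it or within 1 kb of its start sites. The strong summit in its window, at 15930515, had score 749 and rank 528 and lay in an intron of the neighbour bdg, 1420 bp from a bdg TSS and 4202 bp from the nearest Diap2 TSS. The replicates placed it at ranks 692, 338, 745 and 521, a mean of 574 ± 184 (SD, n = 4), and all replicates had it as the single strong summit of the window.

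The initiator caspase gene Dronc (FBgn0026404, chr3L:9968479-9971002) had 1 weak optimal summit in its window and none at its start. That summit, at 9972690, had score 102 and rank 8080, close to the end of the optimal set, and lay 66 bp upstream of vnc and 4211 bp from the Dronc TSS. It ranked 9086, 9007, 6934 and 10922, a mean of 8987 ± 1630 (SD, n = 4), so it was among the strongest peaks of replicate 3 alone. At the Dronc TSS, the full list of replicate 4 had a summit 5 bp upstream at rank 9724. That of replicate 1 had a summit 233 bp inside the gene at rank 19676. Neither was among its replicate's strongest. Its adaptor gene Dark (FBgn0263864, chr2R:17020027-17026703) had 1 optimal summit, at 17027102, with score 268 and rank 2770. This summit lay just past the end of Dark, 88 bp upstream of RhoGEF2 and 7075 bp from the Dark TSS. Replicates 1, 3 and 4 met it at ranks 2635, 3405 and 1239, a mean of 2426 ± 1098 (SD, n = 3), and replicate 2 did not meet it anywhere in its list. At the Dark TSS itself, replicate 1 had a strong peak, 109 bp inside the gene at rank 4411, and no other replicate had a summit within 1 kb of that TSS among its strongest.

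Both effector caspase genes had a summit close to their start, and both summits were weak. At Drice (FBgn0019972, chr3R:29799658-29801584) the summit at 29799594 lay 64 bp upstream of the TSS, with score 150 and rank 5470. Replicates 1, 3 and 4 met it at ranks 3909, 5780 and 5006, a mean of 4898 ± 940 (SD, n = 3), and replicate 2 did not meet it. A stronger summit in the window, at 29803006 with score 544 and rank 969, lay 61 bp upstream of Etfb and 3348 bp from the Drice TSS. It ranked 1294, 771, 1247 and 834, a mean of 1036 ± 272 (SD, n = 4), and so was met strongly by every replicate, replicate 2 included.

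At Dcp-1 (FBgn0010501, chr2R:23551313-23553547) the summit at 23551502 had score 102 and rank 8068 and lay 189 bp inside the gene, in 5′ UTR. It lies where Dcp-1 and pita overlap, 49 bp from a pita TSS, so the 2 genes cannot be told apart there. Its replicate ranks were 7775, 15621, 9127 and 9050, a mean of 10393 ± 3540 (SD, n = 4), so only replicate 1 had it among its strongest. The other summit of the window, at 23548218, had score 172 and rank 4722 and lay 21 bp upstream of levy and 3095 bp upstream of Dcp-1. The replicates ranked it 7458, 4113, 3140 and 4756, a mean of 4867 ± 1851 (SD, n = 4). For Drice and Dcp-1 alike, the stronger summit of the window was thus the one at a neighbour's start.

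Beyond the 10, a list of 28 further apoptosis genes was examined, all matched to the annotation and chosen with earlier results of these data known. An optimal summit lay within 1 kb of a TSS at 10 of the 28 (35.7%) and inside the gene or within 5 kb at 18 (64.3%). The shares of all genes under these rules were the 22.0% and 49.2% given above, and the differences were not tested. The strongest summit was at Cyt-c-d, which encodes a cytochrome c, in an intron 373 bp downstream of its TSS at rank 166. Its replicate ranks were 131, 237, 128 and 184, a mean of 170 ± 51.5 (SD, n = 4), and CG31808 has the nearest coding TSS. The neighbouring cytochrome c gene Cyt-c-p had a summit 957 bp downstream of its TSS at rank 419, with replicate ranks averaging 453 ± 220 (SD, n = 4). The engulfment adaptor gene ced-6 had a summit 203 bp upstream of a TSS at rank 1586 (mean 1805 ± 513, SD, n = 4). Acn, which encodes a nuclear RNA-binding protein, had one 142 bp upstream at rank 1679 (mean 1806 ± 322, SD, n = 4), with the start of Ttc19 nearer. The translation factor gene eIF3m had one 94 bp upstream at rank 3081 that replicate 2 did not meet. The caspase gene Decay had one 542 bp upstream at rank 3333 (mean 3641 ± 498, SD, n = 4). Among the genes of both lists, the ranks of the Cyt-c-d and hid summits were thus the highest within 1 kb of a start.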

How the data were processed

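Peak lists from ChIP-seq with an antibody against GFP on 4 replicates of whole white prepupae were used on dm6 only. Per the file headers, the authors called each replicate's peaks against a control alignment, a further list was called on the pooled replicates, and the optimal set was thresholded by irreproducible discovery rate from the lists of replicates 2, 3 and 4 and the pooled list. Replicate 1 did not contribute its own list to that set. For the caller, aligner and threshold, the names were not given in the sources used here. Deposited columns used are a signal score, whose scale the authors do not state, and the −log10 q-value. Every optimal peak had the highest −log10 q of the deposited list, 4.26, so peaks were ranked by the authors' score within each list.

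Positions are 1-based and replicate counts use as many of a replicate's strongest peaks as the optimal set holds. Genes came from Ensembl release 115 (dm6), sequences from the RefSeq dm6 genome. A replicate met an optimal peak where their intervals shared at least 1 bp, and the strongest such peak gave its rank. Motifs were sought within 100 bp of a summit. The only test is the exact sign-flip permutation test over 4 replicates, with a threshold of 0.05. Counting of summits and this test were checked on simulated data. Analyses used Python 3.11.15, numpy 2.4.6 and pandas 2.3.3. All 10 genes were named; of 28 further genes, the rule names up to 6 with the highest-ranked summit within 1 kb of a TSS. Neighbouring genes were named where a summit described lies in them or nearest to their start, and lncRNAs and coding genes between hid and grim after the values were seen. Genes, lists and motifs were chosen with earlier results of these data known. Alternatives were stricter and fuller lists, other distances, other rules of matching, merged intervals and leaving out each replicate.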

Additional observations from a re-analysis of the deposited data

Results flagged for a closer look

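In 12 of 65 sets of 4 replicate values, 1 replicate stood apart from the others by more than Dixon's 95% critical value, a level that chance passes in about 1 of 20. At the Diap1 summit of rank 3726, replicate 4 had rank 6588 beside 1762 to 2475 in the others. Between hid and grim, replicate 1 had rank 1460 at the summit of rank 894, and replicate 2 had rank 2097 at the summit of rank 3033. Replicate 4 had ranks 11403 and 27630 at the adjoining summits of ranks 4477 and 6739, where the other replicates had 3436 to 4373 at both, through the same peaks. The other 7 were counts of summits within 5 kb of a gene, where small whole numbers tie and any single different replicate passes. Among the strongest peaks, hid had 2 in replicate 3, rpr had 2 in replicate 4, Dronc had 1 in replicate 3, Drice had 1 in replicate 2 and Dark had 0 in replicate 2. In the full lists, skl had 1 in replicate 2 and Drice had 1 in replicate 2.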

How the results depend on the processing

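Of 50 alternative values for the main counts and mean ranks, 43 stayed within 1.5 times the main count or within 1 SD of the main rank. Leaving out 1 replicate cannot shift a mean rank by 1 SD, so for the ranks those values could not fall outside. With the strongest 50% of optimal peaks, 5 genes in place of 8 had a summit within 5 kb, 2 in place of 4 had one within 1 kb of a TSS, and the block held 18 in place of 30 and the hid to grim stretch 17 in place of 26. With peaks met by the strongest peaks of all 4 replicates, 2 genes had one within 1 kb of a TSS. With all pooled peaks, the block held 109 and the hid to grim stretch 76. The cause was not tested beyond the lists being shorter or longer. Shares of all genes were not computed for the shorter lists or with a replicate left out. Those gene counts therefore only describe the listed genes. Leaving out 1 replicate gave means of 6.67 to 7.33 genes within 5 kb, 3.00 to 4.00 within 1 kb of a TSS, 27.0 to 29.0 summits in the block and 23.3 to 25.0 between hid and grim. It gave mean ranks of 183 to 230 for hid and 366 to 416 for Diap1, and log2 ratios of 0.83 to 1.13, each with an exact p of 0.250, the smallest that 3 pairs allow. As no p of this comparison could pass 0.05, its p-values say nothing of stability. The ratio was not computed with the rule that overlaps cover 50% of each interval, because replicate 2 then did not meet the Diap1 peak. Of 99 alternative mean ranks for the 17 summits, 93 moved by less than 1 SD. Most of the 99 leave out 1 replicate, which cannot move a mean by 1 SD, so the 93 are no measure of stability. All 6 that moved by more came from the other rules of matching. Those that moved by more were, with summits matched within 100 bp, Diap1 rank 5006 (to a mean of 10085), Dcp-1 ranks 4722 (8268) and 8068 (16753) and Dark (3751). With 50% of each interval, they were Diap1 rank 8021 (9364) and Dark (3751). The alternatives for the hid to grim count and for the single summits were chosen after seeing the data. No paired analysis was possible because all 4 samples form 1 group, so no second group can be paired with them. The hid and Diap1 comparison pairs 2 peaks within each replicate, not samples. Without read counts, depth limits for absent peaks cannot be given.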

Other observations

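In the optimal set, stretches without a summit also spanned the starts of Dronc (73.4 kb) and Dark (106 kb), beside 3.41 kb at Drice and 3.28 kb at Dcp-1, and these widths varied between the strongest peaks of replicates 1 to 4. The gap was 282, 300, 73.3 and 307 kb at Dronc, where the weak summit near vnc ends it in replicate 3. At Dark it was 99.4, 156, 11.1 and 106 kb. At Drice it was 3.39, 16.4, 3.38 and 3.47 kb, and at Dcp-1 3.46, 6.38, 16.5 and 6.52 kb. The gap at Dark in replicate 3 was thus narrower than those at Drice in replicate 2 and at Dcp-1 in replicate 3.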
